A study of Mus musculus with 192 samples.

Results

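Nqo1, Aox1, Aox3, Ephx1, Cbr1, Cbr3, Osgin1 and Ugdh encode oxidoreductases and a hydrolase that are known as targets of the transcription factor Nrf2. They were chosen by gene symbol, with earlier results of these data known, so their counts of calls beside those of all genes are descriptive. All 8 of them are among the 54752 genes of the deposited table. RNA was sequenced in 9 tissues of male mice, labelled C57BL/6 (C57BL/6J in the study's methods) and 12 weeks old, that were either WT or Nrf2-KO (allele Nfe2l2 tm1Ymk, deleted in the whole body) and were either flown to the International Space Station for about 1 month (FL_WT, FL_KO) or kept on the ground in the same cages (GC_WT, GC_KO). In the study's methods 12 weeks is the age shortly before launch, so the flown mice were older when they were dissected. The ground mice were kept in Japan some months after the flight, so flight cannot be told apart from place and date. The study's methods name a flight food for the flown mice and CRF-1 feed for the ground mice, so food may have differed too. The Nrf2-KO mice had been screened by their sleeping time under anaesthesia to leave out animals with an intrahepatic shunt. There were 6 mice per group, and 3 in mandibular bone (MdB) and kidney (Kid). FL_KO mouse 04, which had an intestinal haemorrhage, was left out, which left 5 FL_KO mice in most tissues and 2 in MdB. The other tissues were temporal bone (TpB), liver (Liv), spleen (Spl), white fat of the epididymis (eWAT), brown fat between the shoulder blades (iBAT), thymus (Thy) and cerebrum (Cbr, named cerebellum in the design text).

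Under resting conditions Nrf2 is held by Keap1, which hands it to a ubiquitin ligase for degradation. Electrophiles and oxidants modify cysteines of Keap1, Nrf2 then accumulates in the nucleus, pairs with a small Maf protein and binds antioxidant response elements near its target genes. Nqo1 reduces quinones by transferring both electrons at once and is the classical reporter of this pathway. Aox1 and Aox3 are molybdenum-dependent aldehyde oxidases, Ephx1 is the microsomal epoxide hydrolase, Cbr1 and Cbr3 are NADPH-dependent carbonyl reductases, Osgin1 is an oxidative stress induced growth inhibitor, and Ugdh makes UDP-glucuronic acid, the sugar donor for glucuronidation in liver.

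In GRCm38 (coordinates from GENCODE vM21), Aox1 (ENSMUSG00000063558.4) and Aox3 (ENSMUSG00000064294.12) lie next to each other on chromosome 1, at 58029931-58106413 and 58113130-58200698, both on the plus strand and 6.7 kb apart. Aox4 and Aox2 follow on the same strand. Cbr1 (ENSMUSG00000051483.9, chromosome 16, 93605853-93610505) and Cbr3 (ENSMUSG00000022947.8, 93683215-93690990) are 72.7 kb apart on the plus strand. Nqo1 (ENSMUSG00000003849.8, 107388225-107403206, minus strand) and Osgin1 (ENSMUSG00000074063.10, 119434124-119446256, plus strand) are on chromosome 8. Ephx1 (ENSMUSG00000038776.13) is on chromosome 1 at 180976210-181020904 and Ugdh (ENSMUSG00000029201.14) on chromosome 5 at 65413221-65435949, both on the minus strand. Of all windows of 76 bases in their exons, none of Nqo1, Aox3, Cbr1, Cbr3 or Osgin1 recurs in another gene, and 0.0674% do for Aox1, 0.319% for Ephx1 and 1.22% for Ugdh. Ugdh shares 8523 bases on the same strand with the gene model Gm43552, so its counts are less certain than those of the others.

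The promoters of Nqo1, Aox1, Osgin1 and Ugdh are printed because the values of these genes carry most of the genotype differences. They are RefSeq windows of GRCm38 from 250 bases before to 50 bases after the start, 5′ to 3′ on the strand of the gene. Both strands were searched for the core of the antioxidant response element (TGACNNNGC), which occurs in 12.4% of all 32851 such promoters, for the AP-1 element TGACTCA (5.2%) and for the core of the dioxin response element GCGTG (32.4%). Capitals mark TGACNNNGC in Ugdh (on either strand) and TGACTCA in Aox1 and Osgin1, and the Nqo1 window held none of the 3 motifs.
Ugdh, chr5:65435793-65436092, minus strand: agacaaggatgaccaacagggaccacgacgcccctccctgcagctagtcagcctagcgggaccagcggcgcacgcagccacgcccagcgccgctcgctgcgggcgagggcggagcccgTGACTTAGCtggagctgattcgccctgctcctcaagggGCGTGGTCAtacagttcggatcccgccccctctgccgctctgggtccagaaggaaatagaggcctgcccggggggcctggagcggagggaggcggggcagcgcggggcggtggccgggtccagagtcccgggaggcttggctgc
Aox1, chr1:58029719-58030018, plus strand: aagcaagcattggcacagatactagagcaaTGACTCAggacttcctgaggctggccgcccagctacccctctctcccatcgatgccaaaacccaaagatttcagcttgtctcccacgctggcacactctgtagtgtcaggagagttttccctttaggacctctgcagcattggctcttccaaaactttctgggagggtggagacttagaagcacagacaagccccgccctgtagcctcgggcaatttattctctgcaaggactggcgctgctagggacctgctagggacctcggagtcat
Osgin1, chr8:119436897-119437196, plus strand: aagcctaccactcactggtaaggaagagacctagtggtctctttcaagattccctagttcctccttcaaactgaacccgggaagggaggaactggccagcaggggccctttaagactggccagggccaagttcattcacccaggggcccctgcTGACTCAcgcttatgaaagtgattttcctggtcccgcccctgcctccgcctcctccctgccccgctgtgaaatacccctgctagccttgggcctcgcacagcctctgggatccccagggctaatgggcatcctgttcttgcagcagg
Nqo1, chr8:107403156-107403455, minus strand: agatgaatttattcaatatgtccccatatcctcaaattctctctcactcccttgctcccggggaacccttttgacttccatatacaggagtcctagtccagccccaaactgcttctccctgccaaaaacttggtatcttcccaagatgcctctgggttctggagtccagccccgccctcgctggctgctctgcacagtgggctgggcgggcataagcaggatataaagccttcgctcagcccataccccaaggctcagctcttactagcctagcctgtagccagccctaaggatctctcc
Ugdh was the only one of the 8 with TGACNNNGC in this window, at 132 and 94 bases upstream of the start, and the second of these overlaps a GCGTG. The TGACTCA of Aox1 lies 220 bases and that of Osgin1 97 bases upstream. On the other strand, the TGACTCA of Osgin1 and the gc before it match TGACNNNGC at every fixed base but the C after TGA. A match is a run of letters and not a bound site. Forms of the response element other than TGACNNNGC were not searched for, so a window without it may still hold one. Elements further away, such as distal enhancers, lie outside these windows.

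The 184 libraries used held 8007523 to 16308175 counts each. Marker genes of each tissue stood where the labels put them. Hepatocyte genes summed to 61860 to 84210 TPM in Liv and to at most 2179 TPM elsewhere, and kidney genes to 53300 to 89470 TPM in Kid and at most 191 TPM elsewhere. Bone genes summed to 48120 to 77160 TPM in MdB and to only 692.7 to 2588 TPM in TpB, whose libraries also held muscle, neural and blood cell transcripts. Nfe2l2, which encodes Nrf2, was called lower in Nrf2-KO mice in all 9 tissues on the ground and in flight. Its mean TPM there was 27.7% to 49.4% of the WT mean in 8 tissues, and 83.8% (ground) and 80.1% (flight) in Spl. The knockout allele lacks only part of the gene, so reads from the remaining exons can still be counted. In Liv, Nfe2l2 read 34.8 to 57.2 TPM (median 42.2) in GC_WT and 13.1 to 17.3 TPM (median 15.8) in GC_KO, without overlap. In bulk RNA, fewer cells of a type and less RNA per cell cannot be told apart.

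Levels in GC_WT mice differed widely between tissues, and are given as mean TPM (transcripts per 1e6, which corrects for transcript length) ± SD over 6 mice, or 3 in MdB and Kid. Thy libraries came from rRNA-depleted total RNA and the others from poly(A) RNA, so the place of Thy among the tissues is less certain. Ephx1 was highest in Liv (391 ± 61.6 TPM), followed without overlap by Spl (127 ± 17.1 TPM). Spl and TpB (71 to 129.9 TPM) overlapped, and MdB (13.5 ± 2.87 TPM) was lowest, overlapping with iBAT. Aox3 was far higher in Liv (226 ± 33.3 TPM) than in any other tissue, the next being TpB (7.32 ± 4.36 TPM), and it was at or below 0.255 TPM in Thy, Kid and iBAT. Its neighbour Aox1 had another order. It was highest in eWAT (57.8 ± 7.07 TPM), then Liv (36.4 ± 5.07 TPM) and iBAT (24.2 ± 5.25 TPM), which overlapped with Liv, and it was lowest in Kid (0.167 ± 0.0603 TPM).

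Nqo1 was highest in Kid (49.5 ± 5.95 TPM) and MdB (27.2 ± 2.34 TPM), which did not overlap with each other or with the following TpB (13.5 ± 3.1 TPM) and Thy (13 ± 1.81 TPM). In Liv it was only 4.43 ± 1.75 TPM, a level that overlapped with eWAT and Cbr. Osgin1 was highest in Liv (118 ± 56.8 TPM), where it varied from 59.1 to 195 TPM between mice, and in Kid (88.9 ± 8.81 TPM). Ugdh was highest in Liv (100.5 ± 14.1 TPM), then MdB (57 ± 2.02 TPM) and Kid (42.6 ± 4.75 TPM), each apart from the one before it. The carbonyl reductases were unlike each other. Cbr1 was present everywhere, between 26.6 ± 2.35 TPM in Thy and 105 ± 24 TPM in Liv, and its highest levels in Liv, Cbr and eWAT overlapped from one to the next. Cbr3 was highest in MdB (22.2 ± 2.65 TPM) and Cbr (15.4 ± 2.0 TPM) and lowest in Liv (0.645 ± 0.219 TPM), where Cbr1 was highest.

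GC_KO was compared with GC_WT to measure how far each gene depends on Nrf2 in mice that were not flown. Of the 72 pairs of gene and tissue, 67 had counts high enough to be tested, and 15 of these were called lower in GC_KO and 0 higher (edgeR, adjusted p under 0.05). Log2 fold changes are given ± SE. Among all genes tested over the 9 tissues, 0.814% were lower and 0.836% higher. By unadjusted p under 0.05, 29 pairs were lower and 0 higher, and DESeq2 and limma called 0 higher as well. The share of all genes at an unadjusted p under 0.05 was not counted, here or in the comparisons below. The median log2 fold change over the 67 pairs was -0.25, and 57 of them were below 0. Of all genes, 46.9% (TpB) to 51.5% (Thy) were below 0 in a tissue. The pairs left untested were Aox1 in Kid, Aox3 and Nqo1 in iBAT, Cbr3 in Liv and Osgin1 in Cbr, all with low counts.

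**Figure D1:**
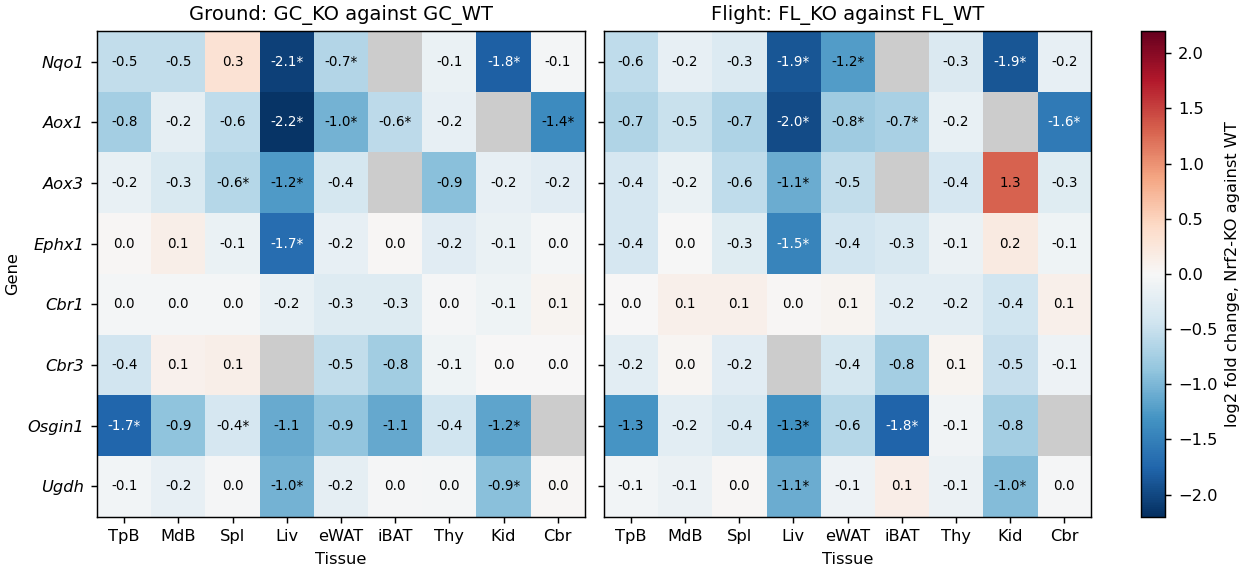
Log2 fold change of Nrf2-KO against WT mice for the 8 genes (rows) in 9 tissues (columns), on the ground (left) and in flight (right), from edgeR. Numbers give the log2 fold change, an asterisk marks adjusted p under 0.05, and grey marks pairs that were not tested. Called values lie in Liv for 5 genes on the ground and 6 in flight, and Aox1 is called in Liv, eWAT, iBAT and Cbr in both.

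Liv held 5 of the 15 calls, out of 7 genes tested, against 1.7% of all genes called lower there. Aox1 read 31 to 45.5 TPM (median 35.8) in GC_WT and 5.99 to 12 TPM (median 7.09) in GC_KO, a log2 fold change of -2.15 ± 0.149 (adjusted p = 6.72e-10). Nqo1 read 3.24 to 7.84 TPM (median 3.65) in GC_WT and 0.77 to 1.35 TPM (median 1.04) in GC_KO, a log2 fold change of -2.05 ± 0.26 (adjusted p = 1.42e-05). Every knockout liver lay below every WT liver for both genes, and GC_WT mouse 08 alone set the top of the Nqo1 range. Ephx1, the most abundant of the 8 in Liv, read 304 to 477 TPM (median 386) and 107 to 133 TPM (median 124), a log2 fold change of -1.68 ± 0.113 (adjusted p = 5.1e-10). Aox3 read 166 to 265 TPM (median 230.2) and 81.4 to 123 TPM (median 94.4), a log2 fold change of -1.25 ± 0.176 (adjusted p = 7.38e-05). The groups did not overlap for either gene, and the knockout retained 31.4% of the WT mean of Ephx1 and 42.5% of Aox3, against 22.7% of Aox1.

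Ugdh, the enzyme upstream of glucuronidation, read 82.2 to 124 TPM (median 99.5) in GC_WT livers and 33.5 to 62.2 TPM (median 47.3) in GC_KO livers, a log2 fold change of -1.04 ± 0.122 (adjusted p = 4.43e-06) without overlap. Osgin1 read 59.1 to 195 TPM (median 96.2) and 39.7 to 79.8 TPM (median 46.6) there. These ranges overlapped and the log2 fold change of -1.12 was not called (adjusted p = 0.0727), although DESeq2 gave an adjusted p of 0.0158. Cbr1 in Liv, at 90 to 153 TPM (median 95.7) and 72.8 to 109.8 TPM (median 85.8), had a log2 fold change of -0.16 (adjusted p = 0.725).

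**Figure D2:**
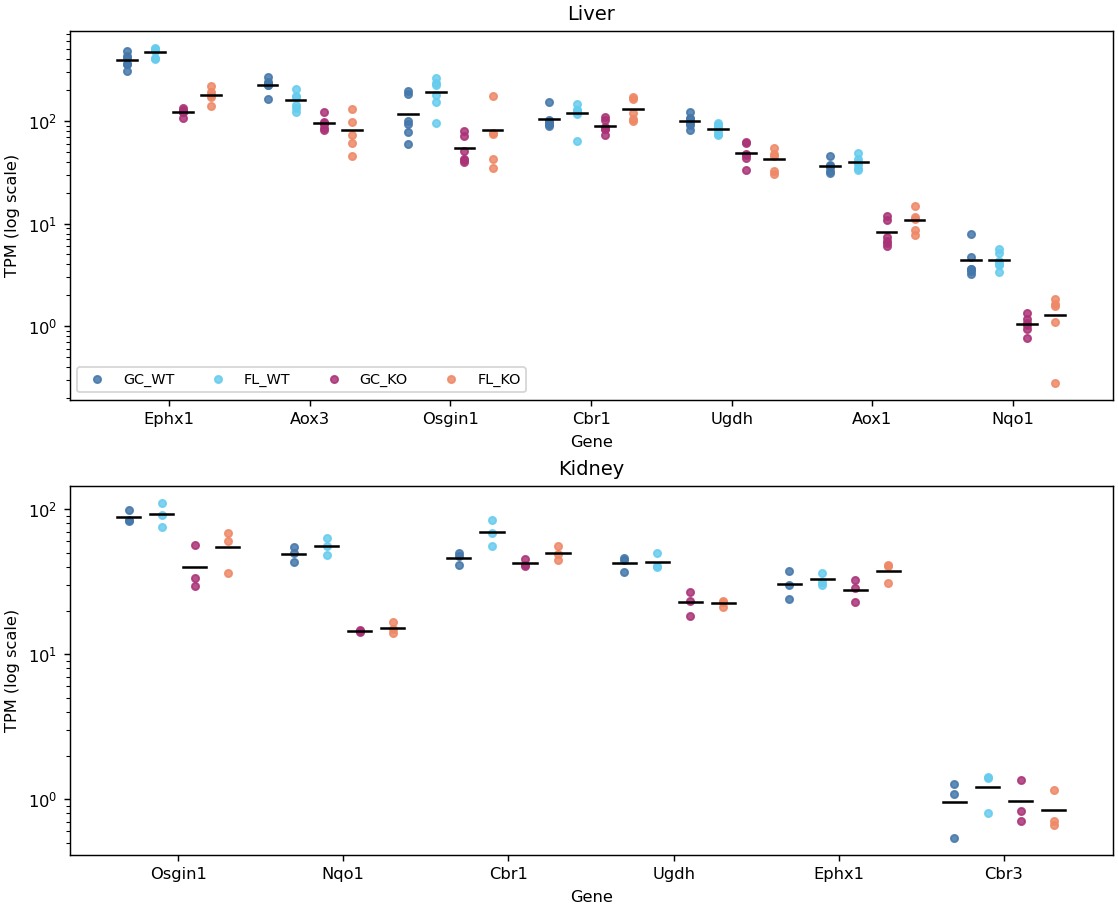
TPM (log axis) in every mouse of the 4 groups for the tested genes in Liv (top) and for 6 genes in Kid (bottom). Points are mice and black lines are group means. In Liv, both knockout groups of Ephx1, Aox1 and Nqo1 lie below both WT groups, as does Nqo1 in Kid, where the GC_KO mice read 14.2 to 14.8 TPM.

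In Kid, 3 of 7 genes were called lower in GC_KO, against 1.04% of all genes. Nqo1 read 43.4, 49.8 and 55.3 TPM in the 3 GC_WT mice and 14.2, 14.4 and 14.8 TPM in the 3 GC_KO mice, a log2 fold change of -1.79 ± 0.123 (adjusted p = 5.69e-06). Ugdh read 37.1, 44.8 and 45.8 TPM and 18.4, 23.3 and 26.7 TPM, a log2 fold change of -0.92 ± 0.127 (adjusted p = 0.00157). Osgin1 read 83.6, 84 and 99.1 TPM and 29.7, 33.8 and 56.5 TPM, a log2 fold change of -1.17 ± 0.264 (adjusted p = 0.0457). All 3 genes were separated without overlap, and the share of all genes so separated in 3 against 3 mice was not counted. The Osgin1 call was kept in 8 of 14 alternatives and was lost without GC_KO 11, 12 or GC_WT 06, 07, 10 (adjusted p = 0.0972 to 0.215). Ephx1 in Kid, at 23.9, 29.9 and 37.6 TPM against 22.8, 28.4 and 32.5 TPM, overlapped and was not called (log2 fold change -0.14, adjusted p = 0.85).

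Aox1 was the gene called in the most tissues. In eWAT, where it was most abundant, it read 52.8 to 71.8 TPM (median 55.9) in GC_WT and 26.7 to 39.9 TPM (median 28.6) in GC_KO, a log2 fold change of -1.03 ± 0.106 (adjusted p = 1.19e-06). In Cbr it read 2.2 to 2.82 TPM (median 2.4) and 0.52 to 1.2 TPM (median 0.94), a log2 fold change of -1.38 ± 0.134 (adjusted p = 1.49e-07). It was the only one of 7 genes called there, where 0.409% of all genes were lower, and Nqo1 at 3.84 to 6.41 TPM (median 4.78) against 4.25 to 5.52 TPM (median 4.47) was not called. In iBAT Aox1 read 18.1 to 33.4 TPM (median 23.7) and 12.6 to 17.5 TPM (median 15.3), a log2 fold change of -0.58 ± 0.103 (adjusted p = 0.00215) and the 1 call among 6 genes against 1.13% of all genes. Groups did not overlap in any of these tissues. In TpB it also did not overlap, at 7.51 to 14.8 TPM (median 9.77) against 4.34 to 7.0 TPM (median 6.45), but its log2 fold change of -0.75 was not called (adjusted p = 0.116). DESeq2 did call Aox1 lower in TpB (log2 fold change -0.74, adjusted p = 0.0243).

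**Figure D3:**
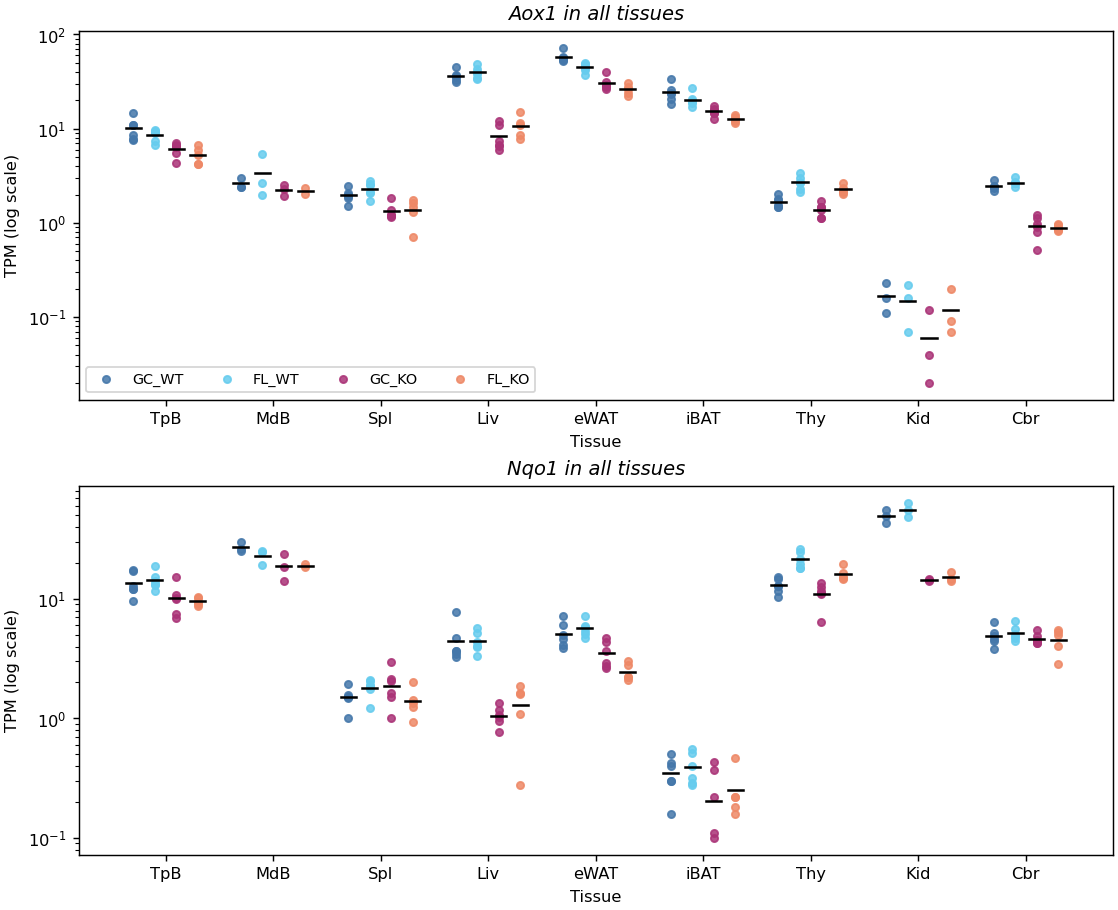
TPM (log axis) of Aox1 (top) and Nqo1 (bottom) in every mouse, by tissue and group. Points are mice, black lines are group means, and 1 GC_KO library of Nqo1 in iBAT listed at 0 is not drawn. Within the ground mice and within the flight mice, Aox1 separates by genotype in Liv, eWAT and Cbr and Nqo1 in Liv and Kid, whereas Nqo1 in Spl and Cbr overlaps between genotypes.

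The remaining calls on the ground were kept in fewer alternatives. In eWAT, where 2 of 8 genes were called against 1.41% of all genes, Nqo1 read 3.86 to 7.18 TPM (median 4.82) and 2.65 to 4.71 TPM (median 3.29), with overlap and a log2 fold change of -0.65 ± 0.175 (adjusted p = 0.0465). That call was kept in 7 of 20 alternatives and was lost without GC_KO 04, 09, 11, 12 or GC_WT 03, 05, 07, 08 (adjusted p = 0.0639 to 0.113). In TpB, where 0.121% of all genes were lower, Osgin1 was the 1 call of 8, at 7.76 to 17.4 TPM (median 10.5) against 2.65 to 5.59 TPM (median 3.31) without overlap and with a log2 fold change of -1.74 ± 0.342 (adjusted p = 0.0246). Hepatocyte genes summed to 19.14 to 2179 TPM (median 301.8) in these GC_WT libraries and to 14.69 to 46.87 TPM (median 18.5) in GC_KO, and adipocyte genes to medians of 731.3 and 310.5 TPM. Their part in the Osgin1 result was not tested. The call was kept in 12 of 21 alternatives and lost without GC_KO 01, 02, 09, 11, 12 or GC_WT 05, 06 (adjusted p = 0.057 to 0.0978).

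In Spl, 2 of 8 genes were called against 0.538% of all genes. Aox3 read 0.82 to 1.26 TPM (median 1.1) and 0.56 to 0.76 TPM (median 0.715), apart but low, with a log2 fold change of -0.62 ± 0.154 (adjusted p = 0.0491) that was kept in 4 of 18 alternatives. Without GC_KO 01, 02, 04, 09, 11, 12 or GC_WT 03, 05, 07, 10 (adjusted p = 0.055 to 0.136) it was lost. Osgin1 read 11.7 to 16.1 TPM (median 12.9) and 9.16 to 11.9 TPM (median 10.1), with overlap and a log2 fold change of -0.38 ± 0.0867 (adjusted p = 0.0268), kept in 12 of 20 alternatives and lost without GC_KO 01, 04, 12 or GC_WT 06, 07, 08 (adjusted p = 0.0526 to 0.0735). The list of 6 erythroid genes summed to 6684 to 25640 TPM in GC_WT and to 7999 to 38290 TPM in GC_KO spleens, and its part in these results was not tested. Nqo1 in Spl was the one pair of Nqo1 above 0, at 1.01 to 1.94 TPM (median 1.5) in GC_WT and 1.01 to 2.96 TPM (median 1.84) in GC_KO (log2 fold change 0.33, adjusted p = 0.636).

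No gene was called in MdB or Thy, where 0.189% and 1.13% of all genes were lower by edgeR. By unadjusted p under 0.05, 3 genes passed in MdB and 1 in Thy. In MdB, Nqo1 read 25.4, 26.3 and 29.8 TPM in GC_WT and 14.1, 18.4 and 23.6 TPM in GC_KO, apart but not called (log2 fold change -0.54, adjusted p = 0.339). In Thy, where Nqo1 was nearly as high as in TpB, it read 10.5 to 15.2 TPM (median 12.8) and 6.37 to 13.5 TPM (median 11.4) (log2 fold change -0.14, adjusted p = 0.54). The 95% interval of this log2 difference ran from -0.38 to 0.09, which does not reach the size seen in Liv or Kid. The carbonyl reductases were called in no tissue, although without GC_KO 04 Cbr1 was called lower in eWAT (log2 fold change -0.35, adjusted p = 0.0199). Cbr1 lay between -0.28 and 0.06 on the log2 scale over 9 tissues, and Cbr3 between -0.76 (iBAT, 1.16 to 2.46 TPM (median 1.31) against 0.36 to 1.6 TPM (median 0.78), adjusted p = 0.224) and 0.13 over 8.

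FL_KO was compared with FL_WT to ask the same question in flown mice, which share no animal with the ground mice. Of the 67 pairs, 13 were called lower and 0 higher, where 0.855% of all genes were lower and 0.5% higher. By unadjusted p under 0.05, 30 were lower and 1 higher, and DESeq2 and limma called 0 higher. The median log2 fold change was -0.31, and 55 pairs were below 0, where 46.8% (TpB) to 51.9% (Thy) of all genes were. Of the calls, 11 were shared with the ground, which is 73.3% of the 15 ground calls and 84.6% of the 13 flight calls. How often calls of all genes were shared was not counted, so this is not a trait shown for these genes alone.

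In Liv, 6 of 7 genes were called lower, against 2.29% of all genes. Aox1 read 33.3 to 48.4 TPM (median 39) in FL_WT and 7.74, 8.63, 11, 11.5 and 15 TPM in FL_KO, a log2 fold change of -1.98 ± 0.158 (adjusted p = 8.51e-09). Nqo1 read 3.35 to 5.67 TPM (median 4.18) and 0.28, 1.1, 1.59, 1.63 and 1.86 TPM, a log2 fold change of -1.88 ± 0.272 (adjusted p = 9.99e-05). Ephx1 read 401 to 514 TPM (median 485) and 140.3, 172, 179.9, 193 and 218 TPM, a log2 fold change of -1.46 ± 0.12 (adjusted p = 1.29e-08). The genotypes did not overlap for these 3 genes, as on the ground. Ugdh read 73.5 to 96.5 TPM (median 84) and 30.6, 32.4, 45.6, 47.7 and 54.8 TPM, also apart, with a log2 fold change of -1.09 ± 0.13 (adjusted p = 6.44e-06). Aox3 read 123 to 207 TPM (median 156) and 45.4, 60.6, 73.1, 97.1 and 130.1 TPM, so that the highest knockout liver lay within the WT range, and its log2 fold change was -1.09 ± 0.187 (adjusted p = 0.000806). Osgin1 was the gene called in flown but not in ground livers, and the interaction was -0.22 ± 0.467 (adjusted p = 1). It read 96.1 to 263 TPM (median 202) and 35.2, 42.5, 74, 76.4 and 176 TPM, with overlap and a log2 fold change of -1.34 ± 0.347 (adjusted p = 0.0303), kept in 10 of 19 alternatives and lost without FL_KO 01, 02, 09, 12 or FL_WT 05, 08, 10 (adjusted p = 0.0557 to 0.0837).

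In Kid, 2 of 7 genes were called, against 1.32% of all genes. Nqo1 read 48.5, 55.5 and 63.5 TPM and 14.1, 14.8 and 16.8 TPM, a log2 fold change of -1.88 ± 0.122 (adjusted p = 3.54e-06). Ugdh read 39.8, 40.5 and 50.1 TPM and 21.1, 22.9 and 23.3 TPM, a log2 fold change of -0.96 ± 0.127 (adjusted p = 0.000968). Osgin1, at 75.3, 91.7 and 110.4 TPM and 36.3, 60.1 and 68.3 TPM, was apart but not called (log2 fold change -0.75, adjusted p = 0.21). With no count filter, edgeR called Osgin1 (-0.76, adjusted p = 0.0349) and Cbr1 (-0.44, adjusted p = 0.0384) lower in Kid. The only pair with an unadjusted p under 0.05 above 0 was Aox3 in Kid (log2 fold change 1.3, adjusted p = 0.336), at levels of only 0.090, 0.11 and 0.14 TPM and 0.13, 0.28 and 0.43 TPM.

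In eWAT, 2 of 8 genes were called, against 0.659% of all genes. Nqo1 read 4.69 to 7.26 TPM (median 5.62) and 2.11, 2.22, 2.23, 2.78 and 3.0 TPM, here without overlap, a log2 fold change of -1.22 ± 0.19 (adjusted p = 0.000644). Aox1 read 36.8 to 49.7 TPM (median 45.2) and 22.4, 23.8, 26.6, 27.5 and 30.6 TPM, a log2 fold change of -0.78 ± 0.112 (adjusted p = 0.000241). In Cbr, where 0.354% of all genes were lower, Aox1 was again the 1 call of 7, at 2.39 to 3.04 TPM (median 2.66) and 0.83, 0.84, 0.88, 0.94 and 0.97 TPM, a log2 fold change of -1.56 ± 0.143 (adjusted p = 4.52e-08) without overlap.

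In iBAT, 2 of 6 genes were called, against 1.27% of all genes. Aox1 read 17.1 to 26.7 TPM (median 19.4) and 11.4, 12.2, 12.5, 13.4 and 14 TPM, a log2 fold change of -0.71 ± 0.109 (adjusted p = 0.000479). Osgin1 read 1.87 to 9.72 TPM (median 6.12) and 0.46, 0.57, 1.71, 2.84 and 3.29 TPM, with overlap and a log2 fold change of -1.76 ± 0.43 (adjusted p = 0.0371), kept in 9 of 20 alternatives and lost without FL_KO 01, 02, 09 or FL_WT 05, 06, 08 (adjusted p = 0.0588 to 0.103). Skeletal muscle genes summed to 7228 TPM in the iBAT library of FL_KO mouse 11, 5893 TPM in FL_WT mouse 06 and 2814 TPM in FL_WT mouse 08, against at most 60.09 TPM in the others. Without these 3 libraries, an alternative chosen after seeing the data, Aox1 kept its call (log2 fold change -0.74, adjusted p = 0.00706) and Osgin1 lost it (-1.57, adjusted p = 0.175). By edgeR no gene was called in TpB, MdB, Spl or Thy, where 0.132%, 0.11%, 0.662% and 1.34% of all genes were lower, and 3, 0, 4 and 3 genes passed an unadjusted p under 0.05. Other tools made calls among these. DESeq2 called Aox1 in Spl (adjusted p = 0.0178), Osgin1 in Spl (0.0197) and Cbr1 in Thy (0.0484), and limma called Osgin1 in Spl (0.0154) and in TpB (0.0338).

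**Figure D4:**
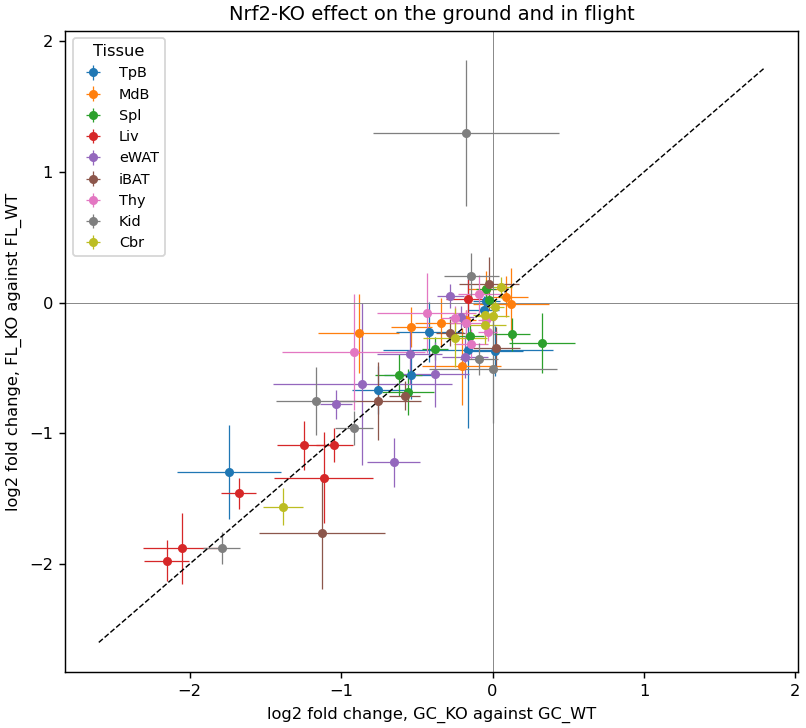
Log2 fold change of Nrf2-KO against WT mice on the ground (x axis) and in flight (y axis) for the 67 tested pairs of gene and tissue, coloured by tissue, with SE bars and a dashed line of equality. The 6 other genes of Liv, Kid Nqo1 and Cbr Aox1 lie at the lower left near the line, Cbr1 in Liv lies near 0, and Aox3 in Kid (-0.18 on the ground, 1.3 in flight) stands apart with wide bars.

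Whether the knockout effect of a gene was larger in one tissue than in the others was tested across mice. For each mouse the log2 CPM of a gene in 1 tissue was set against its mean over the other tissues, and the genotypes were compared by an exact two-sided permutation test. The 7 tissues with 6 mice per group were used, which gave 52 tests on the ground and 52 in flight, and 0.00216 was the smallest p that the design allowed. After Benjamini-Hochberg adjustment over the 52 tests, 21 differed on the ground and 12 in flight, and 11 did so in the same direction in both. Liv accounted for 5 and 4 of these, all with a larger fall in Liv than elsewhere. Only the genes of this report were tested in this way, so the share of all genes that differed between tissues was not counted. By edgeR, 1.7% (ground) and 2.29% (flight) of all genes were lower in Nrf2-KO mice in Liv, the largest shares of any tissue. The larger fall in Liv is therefore not a trait shown for these genes alone. Nqo1 fell further in Liv than in the other tissues by 1.68 on the log2 scale on the ground and by 1.43 in flight. The further falls were 1.44 and 1.24 for Aox1, 1.57 and 1.20 for Ephx1, and 1.01 and 1.08 for Ugdh, and Aox3 fell further by 0.81 on the ground. For Aox1 the fall in Cbr was also larger, by 0.48 and 0.66, but on log2(TPM + 1) the difference was -0.06 on the ground (adjusted p = 0.657) and -0.22 in flight (adjusted p = 0.075), and against the median of the other tissues it was -0.03 on the ground (adjusted p = 0.962). For Nqo1 the change in Cbr was less negative than elsewhere, by 0.54 and 0.66. On log2(TPM + 1) this was 0.40 (adjusted p = 0.0563) and 0.49 (adjusted p = 0.105), and in flight it was also not called without FL_KO mouse 02, 09, 11 or 12 (adjusted p = 0.0571 to 0.114).

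FL_WT was compared with GC_WT for the response of WT mice to flight and return, dissection following some days after landing. Of the 67 pairs, 4 were called lower and 3 higher, where 3.32% of all genes were lower and 3.23% higher. The median log2 fold change was 0.04. Calls were found in Thy, eWAT and iBAT. In FL_KO against GC_KO, 4 were lower and 3 higher, where 4.48% and 4.43% of all genes were, with a median of 0.01. Of each set of 7 calls, 5 were shared with the other, or 71.4%, and the same share over all genes was not counted. On the TPM scale, medians were taken over genes reaching a mean of 5 TPM in a group. Flight moved this median by 0.31 (WT) and 0.43 (Nrf2-KO) log2 units in iBAT, by 0.18 and 0.16 in Thy, by 0.19 and 0.10 in TpB, and by 0.15 in Liv of Nrf2-KO mice. After TMM scaling the shift, over all genes tested by edgeR, was at most 0.041, so the fold changes here are relative to most genes. On the TPM scale (limma on log2(TPM + 1)), 1 pair was called lower and 4 higher in WT mice, and 0 lower and 5 higher in knockout mice. Genes that did not reach a mean of 5 TPM were left out there, which left 5 of the 7 pairs called by edgeR in each genotype. The share of all genes called by limma was not counted. Between genotypes the median shifted by more than 0.1 only in Thy, by -0.11 on the ground and in flight.

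In Thy, 3 of 8 genes were called higher in FL_WT, against 11.8% of all genes. Nqo1 read 10.5 to 15.2 TPM (median 12.8) in GC_WT and 18.2 to 26 TPM (median 20.6) in FL_WT, a log2 fold change of 0.48 ± 0.109 (adjusted p = 0.00241) without overlap. Aox1 read 1.48 to 2.02 TPM (median 1.66) and 2.13 to 3.36 TPM (median 2.67), a log2 fold change of 0.44 ± 0.101 (adjusted p = 0.00276) without overlap. Ephx1 read 15.6 to 22.6 TPM (median 18.1) and 19.3 to 34.2 TPM (median 29.1), a log2 fold change of 0.35 ± 0.0897 (adjusted p = 0.00585) with overlap.

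The same 3 genes were called higher in Thy of FL_KO against GC_KO, where 19.3% of all genes were. Nqo1 read 6.37 to 13.5 TPM (median 11.4) in GC_KO and 14.8, 14.8, 15.3, 16.4 and 19.8 TPM in FL_KO, a log2 fold change of 0.31 ± 0.119 (adjusted p = 0.043) that was kept in 12 of 20 alternatives. It was lost without FL_KO 09, 11, 12 or GC_KO 04, 09, 12 (adjusted p = 0.0526 to 0.141), and GC_KO mouse 04 was the lowest library. Aox1 read 1.13 to 1.7 TPM (median 1.43) and 2.05, 2.14, 2.19, 2.37 and 2.62 TPM, a log2 fold change of 0.46 ± 0.11 (adjusted p = 0.00206). Ephx1 read 10.4 to 16.8 TPM (median 15.8) and 22.1, 22.6, 23.4, 26.2 and 26.5 TPM, a log2 fold change of 0.48 ± 0.0968 (adjusted p = 0.000404). In TPM the flown knockout mice lay above the ground knockout mice without overlap for all 3, and the share of all genes that did so was not counted. Cbr1 was the 1 gene called lower there, at 18.4 to 28.9 TPM (median 26.7) and 23.1, 23.2, 24.7, 26.7 and 26.9 TPM (log2 fold change -0.21 ± 0.0678, adjusted p = 0.0166), against 18.9% of all genes. Its TPM did not fall, and on the TPM scale its log2 difference was 0.02, so its direction depended on the scaling, and the call was also lost without FL_KO 01 (adjusted p = 0.0918).

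Markers of several cell types were higher in flown thymus, as these genes were. The 5 thymic epithelium genes, each with a mean of at least 1 TPM, summed to 450.7 to 589.9 TPM (median 497.7) in GC_WT and 674.2 to 935.5 TPM (median 693.1) in FL_WT. In knockout mice they summed to 314.2 to 546.9 TPM (median 458.6) in GC_KO and 560.5 to 660.9 TPM (median 656.7) in FL_KO. The 6 T cell genes summed to 1552 to 1868 TPM in GC_WT, 1404 to 1702 TPM in FL_WT, 1116 to 1755 TPM in GC_KO and 1082 to 1250 TPM in FL_KO. Adipocyte genes summed to 44.09 to 73.47 TPM in GC_WT and 80.35 to 119.6 TPM in FL_WT, and to 28.2 to 67.34 TPM in GC_KO and 47.97 to 116.5 TPM in FL_KO. B cell genes summed to 5.32 to 7.63 TPM and 8.14 to 11.77 TPM in WT mice, and to 3.95 to 7.41 TPM and 10.17 to 16.84 TPM in knockout mice. Thymic epithelium and B cell genes were apart in both genotypes, and adipocyte genes in WT mice. Fibroblast genes went from a median of 51.41 to 84.1 TPM and macrophage genes from 42.97 to 58.6 TPM in WT mice, with overlap, and from 43.39 to 76.71 TPM and 33.25 to 54.16 TPM in knockout mice, without. The part of these cells in the higher Nqo1, Aox1 and Ephx1 was not tested. On the TPM scale Ugdh was called higher in Thy too, by 0.33 (adjusted p = 0.00512) in WT and 0.27 (adjusted p = 0.0236) in knockout mice.

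**Figure D5:**
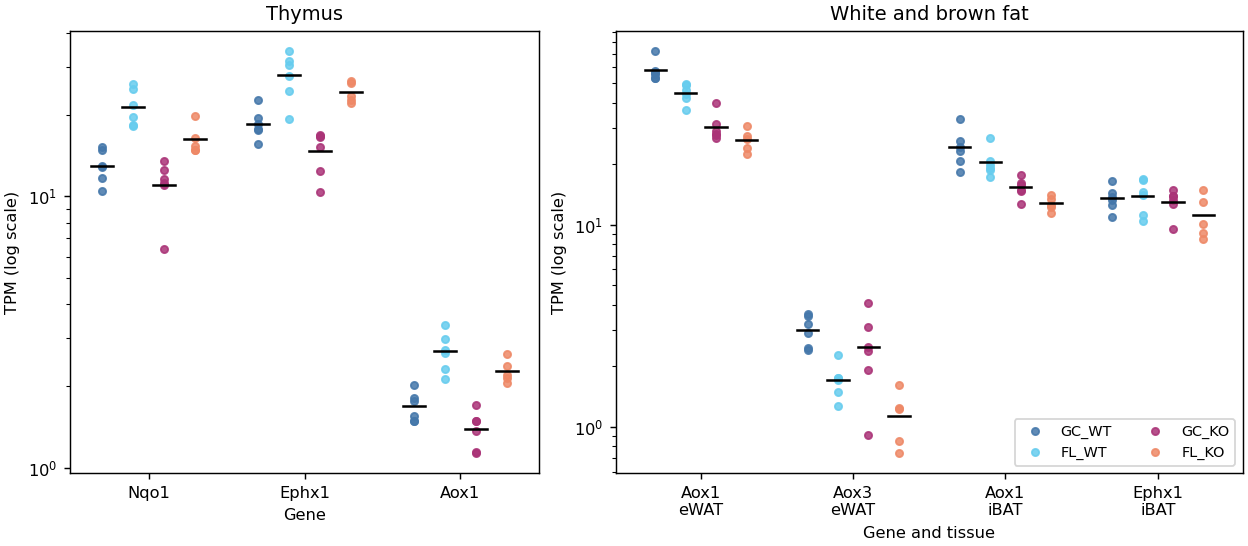
TPM (log axis) of genes called between flight and ground mice in Thy (left) and in eWAT and iBAT (right), in every mouse of the 4 groups. Cbr1, called lower in Thy of FL_KO and in iBAT of FL_WT mice, is not drawn. Points are mice and black lines are group means. In Thy the flight groups lie above the ground groups of the same genotype for Nqo1 and Aox1, and in eWAT Aox3 lies lower in FL_WT (1.27 to 2.26 TPM) than in GC_WT (2.41 to 3.61 TPM).

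In the adipose tissues the 7 edgeR calls with flight over both genotypes were all lower, 5 of them in aldehyde oxidases. In eWAT, 2 of 8 genes were called lower in FL_WT against 6.78% of all genes, and 1 in FL_KO against 3.98%. Aox1 read 52.8 to 71.8 TPM (median 55.9) in GC_WT and 36.8 to 49.7 TPM (median 45.2) in FL_WT, a log2 fold change of -0.48 ± 0.105 (adjusted p = 0.00388) without overlap. Aox3 read 2.41 to 3.61 TPM (median 3.06) and 1.27 to 2.26 TPM (median 1.73), a log2 fold change of -0.91 ± 0.228 (adjusted p = 0.01) without overlap. In knockout mice Aox3 read 0.91 to 4.11 TPM (median 2.43) and 0.74, 0.85, 1.22, 1.24 and 1.6 TPM, with overlap and a log2 fold change of -1.08 ± 0.247 (adjusted p = 0.0102). Aox1 in eWAT of knockout mice was not called (-0.23, adjusted p = 0.225). Skeletal muscle genes summed to 130.7 to 464.4 TPM in GC_WT, 29.39 to 274.2 TPM in FL_WT, 41.07 to 305.1 TPM in GC_KO and 52.93 to 206.9 TPM in FL_KO. Macrophage genes were apart in WT mice (134.2 to 172.7 TPM in GC_WT, 173.2 to 363 TPM in FL_WT), and adipocyte genes in knockout mice (27940 to 37980 TPM in GC_KO, 41760 to 44550 TPM in FL_KO). Fibroblast and preadipocyte genes went from a median of 1709 to 1241 TPM in WT and from 1802 to 1256 TPM in knockout mice. The part of these cells was not tested. With the mouse number as a block, Ephx1 was called higher in eWAT of FL_WT (0.25, adjusted p = 0.048).

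In iBAT, 2 of 6 genes were called lower in FL_WT against 10.3% of all genes, and 2 in FL_KO against 16.6%. Aox1 read 18.1 to 33.4 TPM (median 23.7) and 17.1 to 26.7 TPM (median 19.4) in WT mice (log2 fold change -0.56 ± 0.103, adjusted p = 0.000609), and 12.6 to 17.5 TPM (median 15.3) and 11.4, 12.2, 12.5, 13.4 and 14 TPM in knockout mice (log2 fold change -0.69 ± 0.109, adjusted p = 5.46e-05). Ephx1 was called in knockout mice, at 9.53 to 14.8 TPM (median 13.5) and 8.52, 9.07, 10.1, 13 and 14.8 TPM (log2 fold change -0.64 ± 0.167, adjusted p = 0.00542). TPM ranges overlapped for both genes, and neither was called on the TPM scale, where Aox1 differed by -0.23 and -0.24. Limma on log2(TPM + 1) instead called Osgin1 higher in FL_WT (0.76, adjusted p = 0.0435) and Ugdh higher in FL_KO (0.54, adjusted p = 0.0119). Erythroid genes summed to 604 to 1091 TPM in GC_WT and 336.3 to 537.5 TPM in FL_WT, without overlap. Fibroblast and macrophage genes were higher in FL_KO than in GC_KO without overlap, at 112.3 to 198.3 TPM against 70.34 to 107.8 TPM and 9.87 to 18.76 TPM against 4.78 to 8.31 TPM, and their part was not tested. Cbr1 read 45.2 to 67.4 TPM (median 59.5) in GC_WT and 54.7 to 68.6 TPM (median 62.2) in FL_WT, and its log2 fold change of -0.29 ± 0.0964 (adjusted p = 0.0351) became 0.09 on the TPM scale and was lost without FL_WT 05, 06, 10 or GC_WT 03, 06 (adjusted p = 0.0514 to 0.0997). Without the 3 libraries rich in muscle transcripts, Aox1 kept its calls (log2 fold change -0.52, adjusted p = 0.0072 in WT and -0.68, adjusted p = 0.000441 in knockout mice), as did Ephx1 (-0.55, adjusted p = 0.0181), and Cbr1 lost its call (-0.29, adjusted p = 0.0666).

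In Liv, the tissue with the most genotype calls, no gene was called with flight by edgeR fitted to all 4 groups. By unadjusted p under 0.05, 2 passed in WT and 4 in knockout mice. Nqo1 read 3.24 to 7.84 TPM (median 3.65) in GC_WT and 3.35 to 5.67 TPM (median 4.18) in FL_WT (log2 fold change -0.05, adjusted p = 0.961). Aox3 read 166 to 265 TPM (median 230.2) and 123 to 207 TPM (median 156), with overlap (log2 fold change -0.56, adjusted p = 0.0745). DESeq2 called it lower (adjusted p = 0.0378), as did edgeR on only the groups compared (adjusted p = 0.0386) and with the mouse number as a block (adjusted p = 0.0256). Ugdh in WT livers (log2 fold change -0.32, adjusted p = 0.155) was called on only the groups compared (adjusted p = 0.028) and with the block (adjusted p = 0.039). Ephx1 in knockout livers read 107 to 133 TPM (median 124) and 140.3, 172, 179.9, 193 and 218 TPM, apart and with a log2 fold change of 0.40 (adjusted p = 0.0564), which DESeq2 (adjusted p = 0.0224) and limma (adjusted p = 0.0028) called. Same-numbered flight and ground knockout mice deviated together in Liv, and with the mouse number as a block Ugdh was called lower in FL_KO (log2 fold change -0.39, adjusted p = 0.0331, against -0.37 without the block). In Kid, Cbr1 read 41.5, 47.5 and 49.5 TPM in GC_WT and 55.5, 68.2 and 84.6 TPM in FL_WT, apart but not called (log2 fold change 0.49, adjusted p = 0.279). In MdB, Cbr3 read 19.6, 22.2 and 24.8 TPM in GC_WT and 29.1, 31.6 and 31.9 TPM in FL_WT, likewise apart and not called (log2 fold change 0.39, adjusted p = 0.472).

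The interaction asked whether the flight response of a gene differed between genotypes. It was called for none of the 67 pairs by edgeR, nor by DESeq2 or limma, and 0% of all genes were called. By unadjusted p under 0.05, 3 pairs were lower and 1 higher, and the share of all genes was not counted. For Nqo1 in Thy the interaction was -0.18 ± 0.162 (adjusted p = 0.826), with a 95% interval from -0.51 to 0.16. The lowest was Nqo1 in Spl (-0.64 ± 0.315, adjusted p = 0.999) and the highest Aox3 in Kid (1.47 ± 0.836, adjusted p = 1).

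Genes of related lists give the setting. Of all genes over the 9 tissues, 0.814% were lower and 0.836% higher in GC_KO, and 0.855% and 0.5% in FL_KO. Among other textbook Nrf2 targets, 59 of 266 pairs were lower in GC_KO and 1 higher (median -0.20), and 58 were lower and 0 higher in FL_KO. Of 106 pairs of relatives of the 8 genes in the same families, against 0.814% of all genes, 2 were lower in GC_KO and 0 higher (median 0.01), namely Ephx2, the soluble epoxide hydrolase, in eWAT at -0.68 (adjusted p = 0.0212) and Cbr2, another carbonyl reductase, in Thy at -0.38 (adjusted p = 0.0112), and 4 were lower in FL_KO, against 0.855% of all genes. Genes of the molybdenum cofactor, which the aldehyde oxidases need, were called in 0 of 45 pairs in either genotype contrast by edgeR. Of 28 pairs of AhR targets, a pathway that also induces Nqo1, 1 was lower in GC_KO (Cyp1b1 in Kid, -0.53 (adjusted p = 0.00447)). Of 26 pairs of CAR and PXR genes, 1 was lower, the receptor gene Nr1i3 (CAR) in Liv at -1.96 (adjusted p = 2.79e-07) on the ground and -1.48 (adjusted p = 4.87e-05) in flight, where Cyp3a11, a cytochrome P450 gene, was higher in Liv at 0.53 (adjusted p = 0.0234). Of 90 pairs of Nrf2 regulators, 10 were lower on the ground, 9 of them Nfe2l2 itself.

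With flight, 4 of 45 pairs of the cofactor genes were lower and 1 higher in WT mice, against 3.32% and 3.23% of all genes. In knockout mice 4 were lower and 0 higher, against 4.48% and 4.43% of all genes. In iBAT, where 10.3% and 16.6% of all genes were lower, Mocs2 was lower at -0.52 (adjusted p = 0.000661) in WT and -0.92 (adjusted p = 8.25e-07) in knockout mice, and Gphn at -0.39 (adjusted p = 0.00135) and -0.49 (adjusted p = 9.62e-05). In eWAT of WT mice, where 6.78% of all genes were lower, Gphn was lower at -0.36 (adjusted p = 0.00387) and Mocs1 at -0.49 (adjusted p = 0.0151). In Thy, Mocs2 was lower in knockout mice at -0.21 (adjusted p = 0.0273) and Mocos higher in WT mice at 0.37 (adjusted p = 0.033). The other call in knockout mice was Mocos in iBAT, lower at -0.77 (adjusted p = 0.00813). Of the relatives, 4 of 106 pairs were lower and 4 higher in WT mice, against 3.32% and 3.23% of all genes, and 5 and 6 in knockout mice, against 4.48% and 4.43%. In Thy, where 11.8% and 19.3% of all genes were higher, 3 of 13 relatives were higher in WT mice and 4 higher and 1 lower in knockout mice. Xdh was higher at 0.47 (adjusted p = 0.000395) and 0.62 (adjusted p = 1.16e-05) and Aox2 at 0.86 (adjusted p = 0.0339) and 1.22 (adjusted p = 0.00441) in WT and knockout mice, and Dhrs4 was lower at -0.31 (adjusted p = 0.0175) in knockout mice.

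The likeness of patterns was measured by Pearson's r over the 36 means of tissue and group, each as its deviation from the mean of the 4 groups in that tissue. Levels were log2(TPM + 1), genes had a mean of at least 5 TPM in at least 1 tissue and group, the means within a tissue share their tissue mean, and the values are descriptive. Among the 8 genes, Nqo1 and Ugdh were most alike (r = 0.857), followed by Aox1 and Ephx1 (0.813) and Aox1 and Aox3 (0.79), and Cbr1 was least like the others (-0.057 to 0.446). Among 17828 genes, the one most like Nqo1 was Hfe (0.894), followed by Cyp2a5 (0.875), that most like Aox1 was Pir (0.837), and that most like Ephx1 was Abcc3 (0.936). Those most like the others were Mup17 for Aox3 (0.863), Rdh16f2 for Cbr1 (0.714), Ces1f for Cbr3 (0.758), Tmem267 for Osgin1 (0.907) and Myc for Ugdh (0.894).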

How the data were processed

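Gene expression was measured by RNA sequencing of single reads on a HiSeq2500, with strand-specific libraries from poly(A) RNA (rRNA-depleted total RNA in Thy). Per the labels and methods, the authors mapped the reads to mm10 with STAR 2.6.1 and counted GENCODE vM20 genes with RSEM 1.3.1. The expected counts deposited by the authors are RSEM estimates that split reads mapping to several genes. The TPM values deposited by the authors sum to the same total in every library, and deposited FPKM values were not used. The strand setting used in counting is not given in the sources used here. Replicates are separate mice.

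Samples were grouped by the labels. Expected counts were rounded and fitted per tissue over all genes in R 4.3.3 with edgeR 4.0.16 (filterByExpr, TMM, quasi-likelihood test, all 4 groups in 1 fit), and a pair of gene and tissue was called at an adjusted p (Benjamini-Hochberg, all genes of the tissue) under 0.05. Libraries held 8007523 to 16308175 counts, which limits the precision of genes under about 1 TPM. The fit was repeated with DESeq2 1.42.0, with limma 3.58.1 on TPM (pseudocounts of 1 and 0.1, genes reaching a mean of 5 TPM in a group, and without that filter), with RLE factors, no count filter, FL04 included, only the groups compared, the library set as a term in TpB, the mouse number as a block, and each mouse left out. Intervals of log2 differences are 95% intervals from the fit. Overlap of a gene between groups was read from TPM, and the share of all genes without overlap was not counted in any comparison. The fits were tested on simulated data. The rule for named genes was the 8 genes in all tissues, with statistics for called pairs, the largest changes and pairs where an alternative changed the call, Nfe2l2, and at most 4 genes per list and comparison. The members and lists were chosen with earlier results of these data known. Leaving out 3 muscle-rich iBAT libraries was added after the data were seen.

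A number is shared by a flight and a ground mouse, which are not the same animal. The correlation of their deviations from the group means was above 0.1 for 5 of 5 numbers of Nrf2-KO mice in Liv (0.301 to 0.496) and for 4 of 6 of WT mice there, and in no other tissue with 3 or more pairs did every pair pass. Numbers were not shared between genotypes.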

Additional observations from a re-analysis of the deposited data

Results flagged for a closer look

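Knockout effects that differed between tissues were found by the exact permutation test over mice, as the difference between KO and WT mice of the log2 CPM in 1 tissue minus the mean of the others. For Nqo1 the difference on the ground was 0.9 in Spl, -1.683 in Liv, 0.414 in Thy and 0.538 in Cbr, and in flight it was -1.427 in Liv, -0.514 in eWAT and 0.657 in Cbr. For Aox1 it was 0.469 in Spl, -1.441 in Liv, 0.438 in iBAT, 0.904 in Thy and -0.483 in Cbr on the ground, and -1.244 in Liv, 0.91 in Thy and -0.659 in Cbr in flight. For Aox3 it was -0.813 in Liv on the ground. For Ephx1 it was 0.205 in Spl, -1.572 in Liv, 0.389 in iBAT and 0.315 in Cbr on the ground, and 0.214 in Spl, -1.198 in Liv and 0.405 in Cbr in flight. For Cbr3 it was 0.485 in Spl on the ground. For Osgin1 it was 0.75 in Spl and 0.723 in Thy on the ground and 1.114 in Thy in flight. For Ugdh it was 0.202 in Spl, -1.01 in Liv, 0.182 in Thy and 0.254 in Cbr on the ground, and 0.237 in Spl and -1.082 in Liv in flight. A positive value means a smaller fall, or a rise, relative to the other tissues, and each tissue is also part of the mean that the others are set against. The share of all genes that differed between tissues in this test was not counted.

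In 15 of the 208 groups of 5 or 6 mice (7.21%), 1 mouse stood far from the others, where chance alone gives about 1 group in 20. The gap to the nearest mouse as a share of the whole range was 0.628 for Nqo1 in Spl of FL_WT, 0.68 for Nqo1 in Liv of GC_WT (mouse 08 at 7.84 TPM, the next at 4.71 TPM), 0.649 for Nqo1 in Thy of GC_KO (mouse 04 at 6.37 TPM, the next at 11.01 TPM), 0.686 for Aox1 in Spl of GC_KO, 0.761 and 0.635 for Aox1 in eWAT of GC_WT and GC_KO, and 0.64 for Aox1 in iBAT of FL_WT. It was 0.782 for Aox3 and 0.709 for Ephx1 in TpB of FL_WT, 0.631 for Cbr1 in TpB of FL_WT, 0.878 for Cbr1 in Spl of GC_KO, 0.797 for Cbr1 in Liv of GC_WT (mouse 08 at 153.35 TPM, the next at 102.9 TPM), 0.633 for Cbr1 in Liv of FL_WT, 0.758 for Cbr3 in TpB of GC_KO and 0.7 for Cbr3 in iBAT of GC_WT. GC_WT mouse 08 was the highest of its group in 4 of these.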

How the results depend on the processing

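Calls lower in Nrf2-KO mice were the steadiest. Of the 15 ground calls 10 were kept in every alternative and of the 13 flight calls 11, while with flight 4 of 7 calls in WT and 2 of 7 in knockout mice were. Leaving out 1 mouse gave 10 to 15 lower and 0 to 0 higher calls on the ground (10 without GC_KO mouse 12), 11 to 14 and 0 to 0 in flight, 3 to 5 lower and 3 to 3 higher with flight in WT mice, 4 to 6 and 2 to 5 in knockout mice (5 higher without FL_KO mouse 02), 0 to 0 and 0 to 0 for the interaction, and 8 to 17 tissue differences in flight (8 without FL_KO mouse 09, 17 without FL_KO mouse 11). On the TPM scale (limma on log2(TPM + 1), log2(TPM + 0.1) and log2(TPM + 1) without the filter) the lower calls with flight became 1, 1 and 1 in WT and 0, 0 and 0 in knockout mice. The higher calls in knockout mice became 5, 5 and 8, which the shift of the median gene on that scale moved with. The share of all genes called by limma was not counted. On that scale Cbr1 turned to 0.085, 0.087 and 0.085 in iBAT (FL_WT against GC_WT) and to 0.023, 0.025 and 0.023 in Thy (FL_KO against GC_KO). Tissue differences on the ground became 13 on log2(TPM + 1) and 11 against the median of the other tissues, where Aox1 in iBAT turned to -0.101 and Ugdh in Thy to 0, while Aox1 in Cbr was -0.063 and -0.031 under these, and the cause was not tested. With the mouse number as a replicate block, Nqo1 in Thy of knockout mice was no longer called (0.221, adjusted p = 0.103), and calls were gained for Aox3 (-0.582, adjusted p = 0.0256) and Ugdh (-0.321, adjusted p = 0.039) in Liv and Ephx1 in eWAT (0.254, adjusted p = 0.048) of FL_WT against GC_WT, and for Ugdh in Liv (-0.385, adjusted p = 0.0331) and Osgin1 in Thy (0.796, adjusted p = 0.0411) of FL_KO against GC_KO. Low counts limit Aox3, Nqo1 and Osgin1 where they are under about 1 TPM.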
